A study of Mus musculus with 11 samples.

Results

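The probe sets of Dscam, which encodes the Down syndrome cell adhesion molecule, and of its paralogue Dscaml1 were examined in NSC34 cells with and without depletion of TDP-43. Members were all probe sets that the platform annotation lists under the single symbol Dscam or Dscaml1. Of 194293 probe sets on the arrays, 33 carried Dscam and 0 carried Dscaml1, so Dscaml1 was not analysed here and every value below belongs to Dscam (RefSeq gene 13508, chromosome 16). A probe set is a small group of array probes that reads one stretch of a gene, often a single exon. The genes were chosen by the measured log2 differences between depleted and control cells, which were negative in some probe sets and not in others. Those differences are therefore given as a description, without a test.

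NSC34 is a mouse line made by fusing neuroblastoma cells with motor neuron-enriched embryonic spinal cord cells. All 11 arrays came from lines that had been transfected with a pSUPERIOR hairpin vector and selected with puromycin. There were 4 arrays of shTardbp cells, whose hairpin targets the transcript of TDP-43, 4 of control cells with a GFP hairpin (shGFP) and 3 of control cells with a Renilla luciferase hairpin (shLuciferase). Stable clones were isolated, and nothing in the labels ties an array to a clone or a culture of its own. P-values therefore measure only the spread between these arrays, which may be technical, and effects of a clone and of its hairpin cannot be told apart. The hairpin target is shown because it is the only stated sequence that parts the depleted cells from the controls, written in the order in which the labels give it, 25 bases long.
Tardbp hairpin target: tctaagcaaagccccagacgagcct

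DSCAM is a large transmembrane protein of the immunoglobulin superfamily, with immunoglobulin and fibronectin type III domains outside the cell. Molecules on facing membranes bind each other, and in the mouse retina this binding keeps processes of like neurons from clumping and spaces their cell bodies. DSCAM also binds netrin, a guidance cue, and acts beside the netrin receptor DCC. Its gene is very long, with long introns, and TDP-43 is a nuclear RNA-binding protein that controls splicing in many genes of that kind.

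The log2 gene value of Tardbp itself lay between 8.80 and 8.997 in shTardbp, between 9.08 and 9.42 in shGFP and between 9.20 and 9.38 in shLuciferase, and shTardbp overlapped neither control. Its log2 change against both controls was -0.40 (SE 0.0722, limma adjusted p = 0.000713), and p was 0.00303 in a two-sided exact permutation test, which cannot go lower with 330 splits. Array codes in the labels begin with P for all of shTardbp and for shLuciferase 4, and with C for the remaining controls, with no meaning stated. A block on this letter is estimated only from shLuciferase 4 against the other shLuciferase arrays. Its results, here and below, therefore hang on that array and are less precise, so a call lost under it does not show an effect of the letter. Blocking on this code letter took the Tardbp change to -0.29 and ended its call (limma adjusted p = 0.173). Array medians lay between 6.82 and 6.92. Of 13 motor neuron and neuron markers, 11 were above the array's 25th percentile of probe set values (4.46 to 4.57) on every array, while the cholinergic enzyme gene Chat and the motor neuron factor gene Mnx1 were not. Among the 13, Slc18a3, Isl2 and Ncam1 rose in shTardbp, by 0.63, 0.26 and 0.33, and 0 fell, where 13.5% of all genes rose and 17% fell. Against shGFP alone 5 of the 13 rose and 2 fell, and against shLuciferase alone 4 rose and 0 fell. Isl1 was lower than in shGFP (-0.51) and higher than in shLuciferase (0.60). Of markers of other cells, the myelin gene Mbp rose by 0.24 and the endothelial gene Pecam1 by 0.41. Of 4 fibroblast markers, 2 (Dcn by -1.61 and Pdgfra by -0.92) fell in shTardbp. Col1a1 (-0.02) and Col1a2 (0.02) were not called. The mean of that list was 5.51 to 5.69 in shTardbp, 6.22 to 6.36 in shGFP and 6.12 to 6.23 in shLuciferase. The control lines also differed, with Dcn at 1.14 and Pdgfra at -0.45 in shGFP minus shLuciferase. The part of these markers in the Dscam values was not tested.

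The 33 Dscam probe sets divided into those that were far lower in TDP-43-depleted cells and those that were not. In 13 probe sets all 4 shTardbp values lay below all 7 control values, where 5.57% of all probe sets on the arrays did so, and 3.47% did so with a log2 difference of at most -0.5. Their log2 differences from the controls (the mean of the shGFP and shLuciferase means) ran from -3.45 to -1.20, with a median of -2.68. On the linear scale the shTardbp signal of these probe sets was 9.18% to 43.6% of the control signal. The other 20 had differences between -0.06 and 0.66, with a median of 0.43, and none of them was lower in all shTardbp arrays. The division also followed the control signal. The mean of the 7 control arrays was 9.64 to 11.96 in the 13 and 4.46 to 9.38 in the 20, without overlap. Whether the 20 dimmer probe sets read little or no Dscam transcript was not tested.

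The largest difference was seen in probe set 4441079. It stood at 6.76, 6.88, 6.82 and 6.61 in the 4 shTardbp arrays, at 10.42, 10.14, 10.45 and 10.29 in the 4 shGFP arrays and at 10.05, 10.34 and 9.92 in the 3 shLuciferase arrays. The highest shTardbp value was thus 3.04 below the lowest control, the widest such gap among the members. The log2 difference was -3.45 (SE 0.107), which is 10.9-fold. Both control lines gave the same picture, with -3.56 against shGFP and -3.34 against shLuciferase.

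Probe set 4609856 followed, with 7.77, 8.40, 7.65 and 7.95 in shTardbp. Its controls were at 11.48, 11.13, 11.13 and 11.17 in shGFP and at 11.26, 11.06 and 11.13 in shLuciferase. The difference was -3.24 (SE 0.140), or 9.47-fold, and the highest shTardbp value lay 2.65 below the lowest control. Probe set 5538337 was lower by a difference of -3.11 (SE 0.144), at 6.72 to 7.36 in shTardbp against 9.92 to 10.54 in the controls. In these 3 probe sets the spread inside shTardbp (SD 0.115, 0.331 and 0.325, n = 4) was small beside the difference.

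Another 9 probe sets had differences between -2.92 and -2.20. Probe set 4497043 ran from 7.69 to 8.43 in shTardbp and from 10.63 to 11.20 in the controls, a difference of -2.92 (SE 0.15). Probe set 4661990 ran from 6.70 to 7.06 in shTardbp and from 9.33 to 9.98 in the controls, a difference of -2.87 (SE 0.126). Probe set 4373299 ran from 6.60 to 7.23 in shTardbp and from 9.38 to 10.15 in the controls, a difference of -2.74 (SE 0.149). The groups of each were more than 2 log2 units apart at their nearest values. In 4693153 the shTardbp arrays held 7.89 to 8.56 and the controls 10.77 to 11.29 (difference -2.68, SE 0.137). In 4629997 the shTardbp arrays held 8.41 to 8.54 and the controls 10.93 to 11.44 (difference -2.62, SE 0.0898). In 5527955 the shTardbp arrays held 8.03 to 8.50 and the controls 10.66 to 11.02 (difference -2.57, SE 0.115). The shTardbp arrays of 4629997 lay closest together, with an SD of 0.0557 (n = 4). For 4469699 the values were 7.58 to 8.26 in shTardbp and 10.06 to 10.47 in the controls, with a difference of -2.21 (SE 0.135). For 4559382 the values were 8.27 to 8.77 in shTardbp and 10.51 to 10.87 in the controls, with a difference of -2.20 (SE 0.115). Probe set 4454890 was at 9.41 to 9.77 in shTardbp and at 11.86 to 12.23 in the controls, and its difference of -2.36 (SE 0.0997) is 5.15-fold. With these, 12 of the 33 members were lower in all shTardbp arrays with a difference of at most -2, as were 0.126% of all probe sets. The nearest control lay at least 0.80 above the highest shTardbp value in each of the 13.

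The smallest difference among the 13 was that of 5255154. It was at 10.11, 9.79, 9.87 and 9.78 in shTardbp, at 11.46, 10.96, 11.22 and 11.14 in shGFP and at 11.04, 10.90 and 10.98 in shLuciferase. Its difference was -1.20 (SE 0.109), or 2.30-fold, and it is the member just inside the division. The member just outside was 4388734, with a difference of -0.06 (SE 0.201). It stood at 5.44 to 6.21 in shTardbp, 5.89 to 6.20 in shGFP and 4.99 to 6.11 in shLuciferase, so its 3 groups overlapped.

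In 19 of the 20 other probe sets the difference from the controls was positive, and in 15 the shTardbp mean fell inside the range of the shGFP arrays. In 14 all 4 shTardbp values lay above all 3 shLuciferase values. The share of all probe sets that did so is not given here, and these probe sets read the same gene on the same arrays. Against shGFP alone the differences ran from -0.35 to 0.41 with a median of 0.13. Against shLuciferase alone they ran from 0.16 to 1.00 with a median of 0.68. These comparisons share the shTardbp arrays. Probe set 4991265 was the only Dscam probe set higher in all shTardbp arrays than in all controls (5.34% of all probe sets were), at 8.35 to 8.75 against 7.94 to 8.23 in shGFP and 7.24 to 7.97 in shLuciferase. Probe set 4549648 had the largest positive difference, 0.66 (SE 0.175), but its shTardbp range of 7.55 to 8.18 overlapped the shGFP range of 7.34 to 7.83.

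The shTardbp means of the 13 lower probe sets ran from 6.77 to 9.89. The lowest, that of 4441079, lay below the array medians (6.82 to 6.92) and inside the control range of the other 20 (4.46 to 9.38). Whether a floor of the signal limits the differences was not tested. All 13 were above the 25th percentile on every array. Of the other 20, 19 were above it on every array, and 4426636 was above it on 7 of 11 arrays. No detection calls were used, so being above that percentile does not show that a probe set reads transcript. Positions along the gene were not analysed here, no probe set is assigned to an exon, and whether the 13 lie side by side along the gene was not tested.

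Averaged per array, the 13 lower probe sets had a mean of 8.03 ± 0.130 (SD, n = 4) in shTardbp cells. The control means were 10.7 ± 0.180 (SD, n = 4) with the GFP hairpin and 10.6 ± 0.0381 (SD, n = 3) with the luciferase hairpin. The mean of the 13 was thus lower by a log2 difference of -2.63, 6.18-fold, or 16.2% of the control signal. The other 20 stood at 7.23 ± 0.120 in shTardbp, 7.14 ± 0.0740 in shGFP and 6.59 ± 0.100 in shLuciferase. Their mean was higher than the controls by 0.36, with differences of 0.09 against shGFP and 0.63 against shLuciferase. Against shLuciferase 4, the control array that shares the code letter of the shTardbp arrays, the mean of the 13 differed by -2.52 and that of the 20 by 0.75.

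The Dscam gene value, the mean of all 33 probe sets, averages over both sets. It was 7.52, 7.71, 7.42 and 7.53 in the shTardbp arrays, 8.64, 8.49, 8.60 and 8.48 in shGFP and 8.22, 8.20 and 8.09 in shLuciferase. All shTardbp values lay below all controls, and the difference was -0.82 (SE 0.0663), or 56.8% of the control signal. With the median of the probe sets as gene value the difference was -0.27, with -0.52 against shGFP and -0.02 against shLuciferase. With the mean it was -1.01 against shGFP and -0.62 against shLuciferase, and -0.54 against shLuciferase 4 alone. In bulk RNA, fewer cells with the transcript and less transcript per cell cannot be told apart.

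The contrast between the control lines was not used to choose the members and could be tested. The gene value was 8.55 ± 0.0806 (n = 4) in shGFP and 8.17 ± 0.0723 (n = 3) in shLuciferase, without overlap. Dscam was higher in shGFP by a log2 change of 0.39 (SE 0.0805, limma adjusted p = 0.00664), as were 6.26% of all genes, while 4.82% were lower. The order of the gene values was therefore shGFP, shLuciferase and shTardbp, and the first 2 differed beyond their spread. The gene value averages unlike sets here too. Between the control lines the mean of the 13 lower probe sets differed by 0.14, and that of the 20 dimmer ones by 0.54.

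The difference between the control lines was larger at the median in the 20 probe sets that were not lower in shTardbp than in the 13. In the 20, the differences of shGFP from shLuciferase ran from 0.12 to 0.78 with a median of 0.57, and all 20 were positive. In 12 of them all 4 shGFP values lay above all 3 shLuciferase values. The 13 lower probe sets differed by -0.01 to 0.25 with a median of 0.12, and in 1 of them the groups did not overlap. The share of all probe sets without overlap is not given here, so these counts have no baseline. All these probe sets read the same gene on the same arrays. In the limma fit over all probe sets, 3 of the 20 and 0 of the 13 passed the adjusted threshold of 0.05 as higher in shGFP, where 1.63% of all probe sets did and 0.983% were lower. At an unadjusted p below 0.05 there were 16 of the 20 and 0 of the 13, against 14.7% of all probe sets. The difference between the sets was not tested, and the control arrays enter both contrasts.

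The 3 that passed were 5332520, 4757454 and 5426368. Probe set 5332520 was at 7.32, 7.59, 7.49 and 7.22 in shGFP and at 6.89, 6.64 and 6.56 in shLuciferase, a log2 change of 0.71 (SE 0.144, limma adjusted p = 0.0239). Probe sets 4757454 and 5426368 were higher in shGFP by 0.66 and 0.67 (limma adjusted p = 0.0373 and 0.0495). None of these 3 passed when shGFP 2, shGFP 3, shLuciferase 2 or shLuciferase 4 was left out (limma adjusted p = 0.0615 to 0.138). Nor did any pass with the code letter as a block (limma adjusted p = 0.0843 to 0.120). For this contrast the block gives the same estimates as leaving out shLuciferase 4, so it is not a separate check. Without shGFP 1 or shGFP 5, 5332520 was the one of the 3 that passed (0.0418 and 0.0333).

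When each probe set was set against the mean of the other Dscam probe sets on the same array, 0 of 33 passed between shGFP and shLuciferase by limma, at 0.0576% higher and 0.0667% lower of all such probe sets. At an unadjusted p below 0.05 there were 4 of the 13 and 1 of the 20, against 6.62% of all. The relative value was lower in shGFP for all 13, by -0.41 to -0.14, and higher for 18 of the 20. Relative values of a gene balance one another by construction, so the signs of the sets are not separate results.

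Over the 33 Dscam probe sets the SD of the log2 difference between shTardbp and controls was 1.53, where the median gene with at least 10 probe sets had 0.166 and the 95th percentile was 0.369. Among 7638 such genes Dscam ranked 3, after the endocytic adaptor gene Eps15 (1.79) and the ephrin receptor gene Epha7 (1.64), both named after their values were seen. Dscam was chosen for the split in these same differences, so its high rank follows from the choice and is a description only. The SD of the difference between the control lines, which the choice did not use, was 0.243 in Dscam against a median of 0.175, at rank 1331. In 40 genes at least 10 probe sets were lower in all shTardbp arrays by 1 log2 unit or more, and Dscam, with 13, was the one among them whose median probe set difference was above 0 (0.15). The next highest median was -0.43. The count and these medians also rest on the differences used in the choice. The share of a gene's probe sets that were this much lower was 0.394 in Dscam. Among the 40 it was smaller in Notch1 (0.282) and Dock6 (0.294) and larger in others, up to 1 in Kdelr3. These genes were named after their values were seen.

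Across the 11 arrays the genes whose values ran most like the Dscam gene value were Gfra1, the GDNF co-receptor gene (Pearson r = 0.986), Clip4 (0.985), the stress-induced transcription factor gene Atf3 (0.980), the orphan receptor gene Gprc5b (0.979) and Hmga2, which encodes a chromatin protein (0.978), out of 14164 genes with at least 3 probe sets. All 5 were lowest in shTardbp and higher in shGFP than in shLuciferase, by 0.26 to 0.91. For probe set 4441079 the closest probe sets of other genes belonged to the helicase gene Ddx25 (r = 0.996), Frmd4a (0.994), Eif4enif1 (0.994), the annexin gene Anxa11 (0.993) and Epha7 (0.992), out of 179463. Their shTardbp differences ran from -6.01 to -0.72 and their control differences from -0.05 to 0.24. These correlations rest on 3 groups of arrays so the points of a group share their condition.

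DSCAM acts with netrin receptors at the membrane and with kinases and adaptors inside the cell. Of 25 measured genes of such partners, 5 rose and 5 fell in shTardbp against the mean of the control groups, where 13.5% of all genes rose and 17% fell. Against each control group alone 3 of these rose (Unc5a, Neo1 and Ptk2) and 1 fell (Magi3). The median log2 change was 0.07, and it was 0.00717 over all genes. Among receptors, Unc5a, a netrin receptor, rose by a log2 change of 0.43 (SE 0.0567, limma adjusted p = 5.6e-05). Neo1, the gene of the netrin receptor neogenin, rose by 0.32 (SE 0.0542). Ptk2, the gene of focal adhesion kinase, rose by 0.21 (SE 0.0540). The netrin receptor gene Unc5c was called at 0.28, but not against shLuciferase alone (0.14, limma adjusted p = 0.305). The synaptic scaffold gene Dlg4 was called at 0.27, but not against shGFP alone (0.21, limma adjusted p = 0.0657). The netrin gene Ntn1 (0.05, limma adjusted p = 0.728) and Dcc (0.00, limma adjusted p = 0.988) did not pass. Ntn1 stood at 4.62 to 4.77 in group means and Dcc at 4.06 to 4.09, near or below the 25th percentile.

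Of the partners inside the cell, the kinase gene Fyn fell by a log2 change of -0.31 (SE 0.0605), and the adaptor gene Nck2 by -0.35 (SE 0.0767). Against shLuciferase alone the changes were -0.13 for Fyn and -0.09 for Nck2 (limma adjusted p = 0.265 and 0.603). Magi3, a scaffold protein gene, fell by -0.30 (SE 0.0669), and the kinase gene Pak2 by -0.26 (SE 0.0652). Pak2 had a limma adjusted p of 0.113 against shLuciferase alone. The nuclear import gene Ipo5 was called at -0.26, but not against shGFP alone (-0.22, limma adjusted p = 0.0760). With the code letter as a block 2 partners rose and 1 fell, Fyn was at -0.48, and every called partner but Unc5a, Ptk2 and Fyn lost its call (limma adjusted p = 0.0515 to 0.827). That block hangs on shLuciferase 4, the only control array with the shTardbp letter. Ptk2 lost its call with probe set medians (0.117), and Ipo5 without shTardbp 1 or shTardbp 3 (0.0510 and 0.0581).

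Among 33 measured genes of other immunoglobulin superfamily adhesion molecules, 6 rose and 2 fell against the mean of the control groups, beside 13.5% and 17% of all genes, with a median log2 change of 0.03. Against each control group alone 3 rose (L1cam, Cntn2 and Ncam1) and 2 fell. The 2 that fell were Nfasc, the gene of neurofascin at axon initial segments, and Nrcam of the same L1 family. Nfasc stood at 5.18 in shTardbp, 6.15 in shGFP and 5.82 in shLuciferase, a change of -0.80 (SE 0.0524). Nrcam stood at 8.72, 9.39 and 9.67, a change of -0.81 (SE 0.0658). In both genes all shTardbp arrays lay below all controls.

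L1cam, the founding gene of that family, rose by 0.46 (SE 0.0871), and Cntn2, a contactin gene, by 0.45 (SE 0.0694). With the code letter as a block, which hangs on shLuciferase 4, L1cam was at 0.76. Ncam1, the neural cell adhesion molecule gene, rose by 0.33 (SE 0.0590), and its call was lost with the code letter as a block (limma adjusted p = 0.183). Sdk1, whose product sidekick shares the domain plan of DSCAM, rose by 0.41 (SE 0.0703), with a limma adjusted p of 0.0723 against shLuciferase alone. Its paralogue Sdk2 had a change of -0.03 and did not pass (limma adjusted p = 0.810). Igsf9 was called at 0.28, but not against shGFP alone (0.12, limma adjusted p = 0.314) nor with the code letter as a block (0.0786). Cadm4 was called at 0.19 (limma adjusted p = 0.0487), but against neither control alone (limma adjusted p = 0.159 for shGFP and 0.0644 for shLuciferase). Its call was also lost without shGFP 3, shGFP 5, shLuciferase 2, shLuciferase 4 or any single shTardbp array (limma adjusted p = 0.0530 to 0.163). Of the 33 genes, 16 were above the 25th percentile on every array.

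Of the 5 nearest measured genes on each side in the RefSeq order of GRCm38.p6, 3 of 10 passed by limma, all lower in shTardbp. Over all genes 17% were called lower and 13.5% higher. Get1, listed as Wrb and needed for insertion of tail-anchored proteins, fell by -0.32 (SE 0.0651, limma adjusted p = 0.0016). Pcp4 on the one side and Fam3b on the other fell by -0.15 and -0.34 (limma adjusted p = 0.0488 and 0.002), and against shLuciferase alone the changes were -0.11 (limma adjusted p = 0.290) and -0.01. Fam3b stood low, at 4.48 in shTardbp, 5.15 in shGFP and 4.49 in shLuciferase. It was not above the 25th percentile on every array. Bace2, next to Dscam, was at 10.35 in shTardbp, 10.85 in shGFP and 10.25 in shLuciferase and did not pass (limma adjusted p = 0.0894). With the code letter as a block, or with medians of probe sets, 1 of the 10 passed, and 2 or 3 passed without single arrays.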

How the data were processed

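The deposited values are log2 expression values per probe set, for which Partek and RMA are named per the submitters' processing notes. Their versions and settings, and any genome build, were not found in the labels or file headers. Labelling used the Ambion WT Expression Kit and an Affymetrix WT kit, per the labels' protocols. The platform annotation gave 179496 of 194293 probe sets 1 symbol (15803 genes). A gene value is the mean log2 of its probe sets. Models with 3 groups were fitted to all genes, all probe sets, and relative values (a probe set minus the mean of the others of its gene, at least 3 per gene) with limma 3.58.1 in R 4.3.3. The Benjamini-Hochberg adjustment ran over all features, with a threshold of 0.05, without a filter on low values. The number of arrays limits the precision.

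Members and lists were chosen with earlier results of these data known. The partner and adhesion lists came from background knowledge. Named were all members, Tardbp, up to 6 called genes per list with the smallest adjusted p, list members described as not called, the 5 measured neighbours on each side and the 5 most similar genes. Unc5c, Dlg4, Ptk2, Ipo5, Igsf9 and Cadm4, the other called list genes, were named after their values were seen. Code was tested on simulated data. Tried instead were probe set medians, a filter on low values, quantile normalization, centring, blocks for replicate number or code letter, array weights and leaving out each array. The alternatives for Tardbp, the neighbours, named list genes, set means and single probe sets were added after seeing the data. Dscaml1 has no value here.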

Additional observations from a re-analysis of the deposited data

Results flagged for a closer look

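In 68 groups of 4 arrays (33 probe sets and the gene value, in shTardbp and shGFP), 3 held an array far from the rest, and chance gives about 1 in 20. Probe set 4609856 was at 11.48 in shGFP 1, where the other shGFP arrays were at 11.13 to 11.17. Probe set 4426636 was at 4.26 in shTardbp 3, where the others were at 5.03 to 5.16, and it was below the 25th percentile on some arrays. Probe set 5608305 was at 6.004 in shTardbp 4, where the others were at 6.57 to 6.67.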

How the results depend on the processing

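The 13 Dscam probe sets were lower in all shTardbp arrays under the filter on low values, quantile normalization, centring and each omission of an array. The Dscam gene difference moved to -0.27 with probe set medians and to -0.71 with the code letter as a block, and lay between -0.87 and -0.77 when an array was left out. Its change between the control lines kept its call under every alternative (limma adjusted p = 0.00307 to 0.0461). The count of members that passed between the control lines was 6 with array weights, 1 with the code letter as a block (none of the 3 named), and 0 to 3 without single arrays. Between the control lines the letter block gives the same estimates as leaving out shLuciferase 4. With the letter block, which hangs on shLuciferase 4, 2 partners rose and 1 fell, 1 neighbour passed, and Tardbp was at -0.29 (limma adjusted p = 0.173). The count of neighbours was 2 with the filter, centring or the replicate block and 4 with array weights. With probe set medians 1 neighbour passed, and Nck2 lost its call (limma adjusted p = 0.172).

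Replicate numbers are shared across groups. Same-numbered arrays correlated by -0.06 to 0.26 in their deviations (median 0.118, 8 pairs). The 32 other pairs correlated by -0.29 to 0.29 (median -0.0122). Of 10 arrays with a same-numbered array in another group, 5 correlated best with their own number. These values do not exclude a link by number. The main fits did not take the numbers as pairs, and a replicate block was run as an alternative. With a replicate block 0 members passed between the control lines (the 3 named had limma adjusted p = 0.118 to 0.224), and the Dscam gene difference was -0.81. Dscaml1 results could not be run. Low signal limits Dcc and other genes near the 25th percentile.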
